A study of Mus musculus with 59 samples.

Results

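Among 59 messenger RNA libraries from the prefrontal cortex of mouse pups, 5 libraries stood out by high Drd2 and Adora2a, the dopamine D2 receptor and a receptor for adenosine. They were chosen for those values, so their difference from the other libraries of their own groups is described here and not tested. They were compared with 19 group mates, the remaining libraries of the same 5 groups, while the 35 libraries of the 7 groups that held none of them served as separate material. Of the 5, 4 came from pups labelled heterozygous (HT) for Myt1l and 1 from a wild-type (WT) pup. Fluoxetine had been given to 3 and vehicle to 2, and none came from the 20 libraries of lithium-treated pups. There were 3 females and 2 males. All 3 fluoxetine members carry replicate number 2 and both vehicle members number 3, and the labels do not say what a number marks. Within the 5, drug and number therefore cannot be told apart.

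All pups were C57BL/6J and were taken at postnatal day 25, after lithium, vehicle or fluoxetine, which blocks serotonin reuptake, had reached them through the dam's milk from day 3 to day 24. Each of the 12 groups of genotype, drug and sex held 5 libraries, except WT fluoxetine females with 4. The 5 groups used here were HT fluoxetine females, HT fluoxetine males, HT vehicle females, HT vehicle males and WT fluoxetine females. Litters, dams and dissection dates are not given in the labels, so p-values measure only the spread between libraries, and the dose reaching a pup through milk is not given. Myt1l encodes a neuronal zinc finger transcription factor. Its level was not lower in HT pups: the log2 difference from WT was 0.17 ± 0.06 (SE) in vehicle pups (limma, adjusted p = 0.41), so HT is used as a label only.

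The striatum is the input nucleus of the basal ganglia and lies beneath the frontal cortex. Its projection neurons release GABA and fall into an indirect pathway, marked by Drd2, Adora2a and Penk, and a direct pathway, marked by Drd1, Tac1 and Pdyn, and both carry a shared dopamine and cyclic AMP signalling apparatus. Cortex expresses many of these genes too, at lower levels. Values are normalized counts, read counts divided by a size factor per library by the authors. They are not scaled for gene length, so levels are compared between libraries and not between genes. In bulk tissue, fewer cells of a type and less RNA per cell cannot be told apart.

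Promoter sequences are shown for the dopamine receptors of both pathways and for Rarb, a retinoic acid receptor and the striatal transcription factor gene with the smallest p in the separate libraries. They are from RefSeq on GRCm38.p6, 250 bases before to 50 after a start site, 5′ to 3′. Capitals mark GGGCGG (a GC box) and GGTTCA or AGTTCA (half-sites bound by retinoid receptors), searched on both strands.

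Drd2 (chr9:49340153-49340452, plus strand): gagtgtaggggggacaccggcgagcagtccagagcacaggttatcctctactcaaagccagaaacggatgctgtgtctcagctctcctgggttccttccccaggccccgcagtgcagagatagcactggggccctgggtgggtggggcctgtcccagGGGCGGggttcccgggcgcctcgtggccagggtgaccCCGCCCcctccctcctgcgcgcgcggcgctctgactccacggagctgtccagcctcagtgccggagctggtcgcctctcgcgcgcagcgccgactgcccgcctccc
Drd1 (chr13:54055609-54055908, minus strand): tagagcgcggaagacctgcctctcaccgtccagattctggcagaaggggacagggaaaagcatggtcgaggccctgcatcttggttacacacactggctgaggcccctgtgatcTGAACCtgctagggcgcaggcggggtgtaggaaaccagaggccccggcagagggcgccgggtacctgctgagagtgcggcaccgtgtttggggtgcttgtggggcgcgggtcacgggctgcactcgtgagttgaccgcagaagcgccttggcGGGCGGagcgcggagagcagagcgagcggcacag
Rarb (chr14:16575427-16575726, minus strand): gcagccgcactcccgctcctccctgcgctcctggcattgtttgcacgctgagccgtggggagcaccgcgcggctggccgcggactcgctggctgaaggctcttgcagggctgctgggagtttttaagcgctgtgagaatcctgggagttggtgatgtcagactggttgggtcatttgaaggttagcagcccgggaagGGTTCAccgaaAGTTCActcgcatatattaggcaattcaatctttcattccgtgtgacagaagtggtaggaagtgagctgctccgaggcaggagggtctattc

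The Drd2 window held 2 GC boxes and the Drd1 window 1 GC box and 1 GGTTCA. The Rarb window held GGTTCA and AGTTCA in the same direction, with ccgaa between them, and no GC box. AGGTCA, a further nuclear receptor half-site, was in none of them. Of 32851 RefSeq promoters of this length, 35.7% held GGGCGG, 10.4% GGTTCA, 14% AGTTCA and 16.3% AGGTCA. The Rarb start lies inside the gene, 243680 bases from the GENCODE gene start. These matches are descriptions of the letters only.

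Drd2 was at 172 normalized counts in HT fluoxetine female 2, 125 in HT fluoxetine male 2, 88.4 in WT fluoxetine female 2, 304 in HT vehicle female 3 and 234 in HT vehicle male 3. The group mates had a lowest value of 15.6, a median of 26.7 and a highest of 71.2, so the sets did not overlap. The vehicle pair stood highest and WT fluoxetine female 2 lowest of the 5. The log2 difference from the mean of the group mates, on the log2(value + 1) scale, averaged 2.50 ± 0.91 (SD, n = 5 groups). Adora2a was at 348, 241, 164.35, 526 and 396 in the same order, against 64.7 to 164.16 in the mates, with an average difference of 1.62 ± 0.84 (SD, n = 5). The lowest of the 5 and the highest mate, HT fluoxetine male 1, thus nearly touched for Adora2a. Just outside the selection for Drd2 were WT vehicle female 4 at 79.0 among the separate libraries and HT fluoxetine male 4 at 71.2 among the mates.

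**Figure D1:**
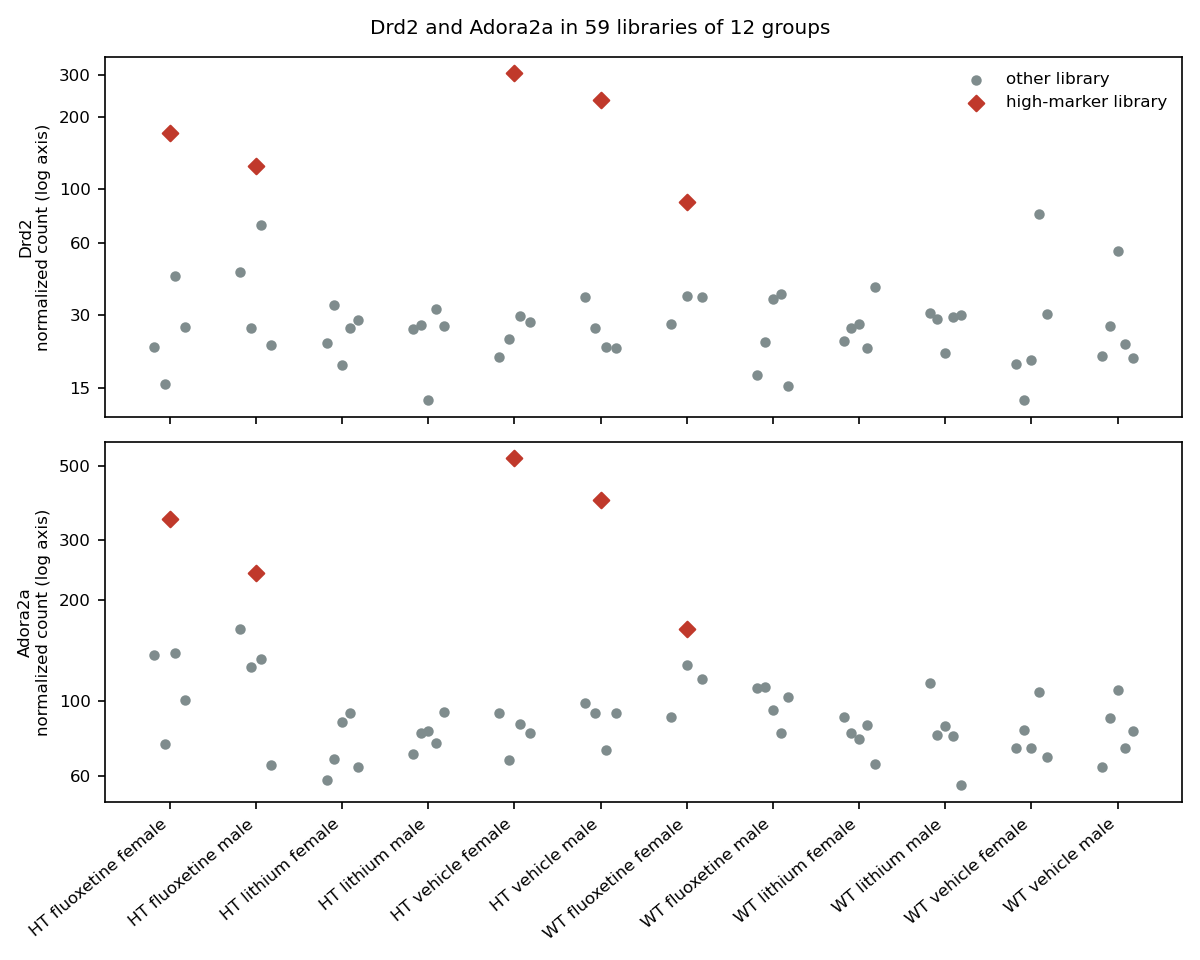
Normalized counts of Drd2 and Adora2a on log axes for each of 59 libraries by group, with the 5 high-marker libraries as red diamonds and the others as grey circles. Drd2 in the 5 runs from 88.4 to 304 and no other library exceeds 79.0.

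Recovered totals were 25088446 to 31745513 reads in the 5 against 25841077 to 35704781 in the mates. WT fluoxetine female 2 (25088446) and HT vehicle male 3 (26186770) had the fewest reads in their groups, and each of the others lay within the range of its mates. The share of reads from mitochondrially encoded genes was 9.79% and 11.2% in the 2 vehicle members and 5.42% to 5.96% in the 3 fluoxetine members, with 5.30% to 8.85% in the mates. The part of depth and of this share in the results below was not tested.

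Of 16622 genes with a mean of at least 10, 121 (0.728%) lay above every mate in all 5 groups and 36 (0.217%) below. Of 75 genes in 9 lists of striatal genes, 71 were in the table and 70 passed this filter. Above every mate in all 5 groups were 19 of the 70, or 17 of 68 without Drd2 and Adora2a, and 0 were below. Six3 passed the filter only through the 5 libraries. Since the 5 were chosen on the same contrast, these counts describe the choice and support nothing.

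Among the other indirect-pathway genes, Gpr6, an orphan receptor, was nearly level across the 5 at 91.4, 93.4, 89.5, 92.2 and 96.3 in the order used for Drd2, against 27.0 to 55.5 in the mates. No mate overlapped, and its difference of 1.20 ± 0.19 (SD, n = 5) varied far less than that of Drd2. Penk, the enkephalin precursor, was higher than every mate in 3 groups, with an average of 0.58 ± 0.37. Sp9, a transcription factor needed for these neurons, went the other way at -0.78 ± 0.45.

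Among direct-pathway genes, Drd1 was at 525, 376, 316, 371 and 396 in the same order, against 77.5 to 295 in the mates. All 5 lay above every mate, with a difference of 1.20 ± 0.36 (SD, n = 5). Tac1, the substance P precursor, differed by 1.25, 0.87 and 0.73 in the fluoxetine members but by 0.20 and -0.09 in the vehicle members. Pdyn, the dynorphin precursor, differed by 0.34 ± 0.11. Isl1, a transcription factor of developing direct-pathway and cholinergic neurons, fell under the filter and was at 8.12 to 22.6 in the 5 against 0 to 14.8 in the mates. Ebf1, Eya1 and Sfxn1 averaged between -0.14 and 0.01.

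The receptors of both pathways were not raised in one ratio, which is compared here between libraries only. The level of Drd2 divided by that of Drd1 was 0.818 and 0.592 in HT vehicle female 3 and HT vehicle male 3, and 0.327, 0.333 and 0.280 in the fluoxetine members. For Adora2a over Drd1 the values were 1.415 and 1.0 against 0.663, 0.640 and 0.520. These are ratios of levels, and those of the mates are not given here. The rise of Drd2 over the mean of its mates, divided by that of Drd1, was 1.732 and 1.068 in the vehicle members. In the fluoxetine members it was 0.392, 0.4335 and 0.326. For the rise of Adora2a over that of Drd1 the values were 2.767 and 1.576 against 0.638, 0.614 and 0.311. The vehicle pair was thus the higher of the sets in each ratio, without overlap.

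Of the signalling genes shared by both pathways, 9 of 18 were above every mate in all 5 groups, out of 19 in all striatal lists. Of all genes tested, 0.728% were so. Ppp1r1b, which encodes DARPP-32, the dopamine-regulated phosphatase inhibitor, was at 3355, 2619, 2121, 4175 and 3619 against 756 to 1961 in the mates, a difference of 1.17 ± 0.16 (SD, n = 5). Rgs9, a regulator of G protein signalling at dopamine receptors, was at 954, 709, 636, 924 and 802 against 237 to 473. Neither gene overlapped with its mates, and the difference for Rgs9 was 1.34 ± 0.38. Scn4b, a sodium channel beta subunit, averaged 1.36, Rasd2, a small GTPase, 0.70 and Gng7, a G protein gamma subunit, 0.66. The phosphodiesterases Pde10a and Pde1b averaged 0.59 and 0.40, and Adcy5, the adenylyl cyclase of striatal neurons, 0.44. Others in the list did not follow: Actn2, Arpp21, Ano3 and Tmem158 averaged between -0.12 and 0.08. Syndig1l, a synapse protein gene, was at 533 and 360 in the vehicle members, 3.22 and 2.79 above their mates on the log2 scale, and differed by 1.11, -0.18 and 0.28 in the fluoxetine members.

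Transcription factors were split. Six3, a homeobox gene of indirect-pathway neurons, was at 77.0, 44.8, 29.5, 37.6 and 41.8 against 0 to 12.2 in the mates, and no other library of the 59 reached the lowest of the 5. Rarb was at 339, 309, 294, 298 and 270 against 164 to 250, and its difference was 0.59 ± 0.22 (SD, n = 5). Foxp1, Foxp2 and Bcl11b, factors of projection neurons that deep cortical layers also use, averaged 0.19, 0.15 and -0.08. Meis2 and Dlx5 were lower in all 5, at -0.61 ± 0.21 and -0.64 ± 0.27.

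Of 4 cholinergic interneuron genes, all at low counts, 2 were above every mate in all 5 groups and 3 were higher in all 5. Over all 16622 genes tested, 121 (0.728%) were above every mate in all 5 groups and 983 were higher in all 5. Chat, the acetylcholine synthesis enzyme, was at 22.6, 18.7, 11.3, 30.1 and 33.7 against 2.77 to 25.0 in the mates, with each of the 5 above its own mates though the sets overlapped across groups. Slc18a3, the vesicular acetylcholine transporter, whose gene lies within the Chat locus, differed by 1.187 ± 0.49. Slc5a7, the choline transporter, was at 1.37, 0.28, -0.10, 1.11 and 0.88 in the order used for Drd2. None of 11 neuromodulator receptors was above every mate in all 5 groups, with a list median of 0.07, and Grm4, a glutamate receptor, was lower in all 5 at -0.24. The highest average was that of Oprk1, the kappa opioid receptor, which differed by 1.62, 0.88 and 1.35 in fluoxetine members and by 0.22 and 0.47 in vehicle members. Of the patch genes, Lypd1 and Sema5b were above every mate in all 5 groups, at 0.41 and 0.39, whereas Tshz1 averaged -0.82. The 3 matrix genes averaged between -0.06 and 0.15. In the ventral striatum list 0 of 3 were above every mate in all 5 groups: Nts, the neurotensin precursor, averaged 1.07 ± 0.62, Cartpt, a peptide precursor, 0.10 and Crym -0.12, with -1.55 and -0.63 for Crym in the vehicle members.

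**Figure D2:**
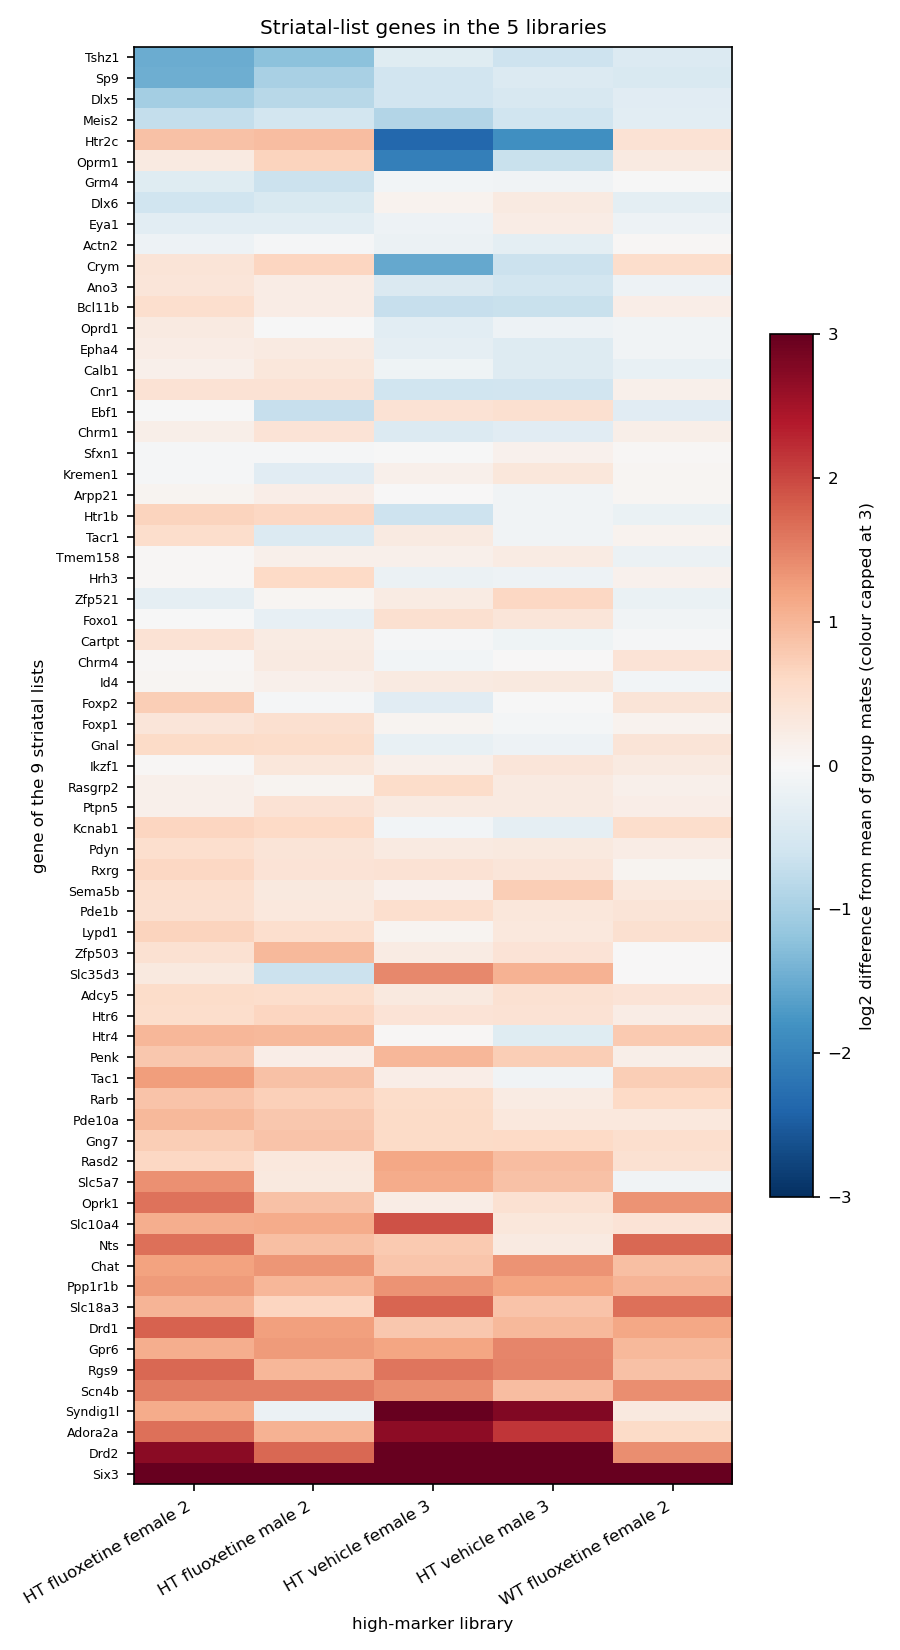
Log2 difference of each of the 5 high-marker libraries (columns) from the mean of its group mates for the striatal-list genes shown (rows, ordered by mean difference); red is higher, blue is lower and colour stops at 3. Six3 and Drd2 lie at the lower end with high values in all 5 columns, and Htr2c is blue in the vehicle columns and red in the fluoxetine ones.

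Not all genes of striatal neurons were higher in these libraries. GABA synthesis and vesicular transport genes, which every striatal projection neuron uses, were not higher on average. Gad1 averaged -0.34 ± 0.25, Slc32a1 -0.16 ± 0.15 and Gad2 -0.08 ± 0.16 (SD, n = 5). In HT vehicle female 3, Gad1 and Slc32a1 were nearly level at -0.01 and -0.03. The part of olfactory bulb RNA, described below, in these values was not tested. Of 6 cortical interneuron genes, 4 were higher in all 5, as were 983 of the 16622 genes tested. The median over those 6 was 0.35, and 0 were above every mate in all 5 groups. Cortical excitatory genes went opposite ways: the median over 9 genes was -0.29 in the vehicle members and 0.31 in the fluoxetine members. Lower in all 5 were 0 of 9, against 937 of all 16622 genes tested. Slc17a7, the cortical vesicular glutamate transporter, was at 43771 to 54056 against 25586 to 60979 in the mates, with differences of -0.28 and -0.17 in the vehicle members and 0.17, 0.41 and 0.16 in the fluoxetine members. The 5 are called high-marker libraries here.

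Myelin and olfactory bulb genes also differed in these libraries. Of 12 myelin genes, 9 were above every mate in all 5 groups, against 0.728% of all genes tested. The list median was 0.84, and the summed level was 140800 to 347700 against 70090 to 174300 in the mates. Mag, a myelin-associated adhesion protein, was at 4645, 4983, 4053, 8290 and 7719 against 1587 to 4378. Each of the 5 was above its own mates, the vehicle pair most. Of 8 olfactory bulb genes, 0 were below every mate in all 5 groups, against 0.217% of all genes tested. Lower than the mean of the mates in all 5 were 6 of the 8, as were 937 of the 16622 genes tested. The list median was -1.61, and the summed level was 247 to 7506 against 215 to 25710. In HT fluoxetine female 2 and WT fluoxetine female 2 the sums, 570 and 7506, exceeded those of their lowest mates, 215 and 6256. In the other members the sum was below every mate. Eomes, a transcription factor of bulb output neurons, averaged -3.04 ± 1.81. S100a5 and Barhl2 were at 0 in at least 1 of the 5. Scgn, which encodes the calcium sensor secretagogin, had the lowest average of the named genes below every mate in all 5 groups, at -2.69 ± 1.57. It was at 4.11, 82.2, 196, 3.76 and 1.16 against 3.42 to 622 in the mates. Dcx, Dlx1 and Dlx2, genes of migrating neuroblasts, averaged -0.82, -0.96 and -0.76. The part of myelin, bulb and neuroblast RNA in the striatal gene differences was not tested.

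Of the 20 named genes with the highest averages among those above every mate in all 5 groups, 10 were in the striatal lists and 3 in the myelin list. The others were Serpina9, a serpin, at 2.65, Sh3rf2 at 2.45, Cd4, the T cell coreceptor, at 2.12, Thbs4, a matrix glycoprotein, at 1.503, Ecel1, a neuronal peptidase-like protein, at 1.23, Lrrc10b at 1.01 and S1pr5, a lipid receptor of oligodendrocytes, at 0.96. Cd4 was at 89.4, 38.3, 35.1, 131 and 90.5 against 6.54 to 29.1 in the mates. Among the other named genes below every mate, Ppp1r17 was at -1.68, Slc9a4 at -1.43 and Bnc2 at -1.05, and a further 7 ran from -0.97 to -0.48.

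The vehicle pair and the fluoxetine members differed from their mates in different ways. Above every mate were 3785 genes (22.8%) in both vehicle groups and 376 (2.26%) in the 3 fluoxetine groups, counts that rest on unequal numbers of groups. Htr2c, a serotonin receptor, was at 243 and 333 in the vehicle members against 1151 to 1405 in the female mates and 1031 to 1648 in the male ones, and at 1531, 1462 and 1409 in the fluoxetine members. It was thus the lowest in its groups in one set and above average in the other, with log2 differences of -2.35 and -1.83 against 0.89, 0.92 and 0.43. Of the striatal-list genes, 12 had one sign in both vehicle members and the other in all 3 fluoxetine members. Over all tested genes this was so for 3959 (23.8%). The myelin list median was 1.35 in the vehicle members and 0.49 in the fluoxetine members. The drug and the member cannot be told apart within a group, and this difference was not tested.

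**Figure D3:**
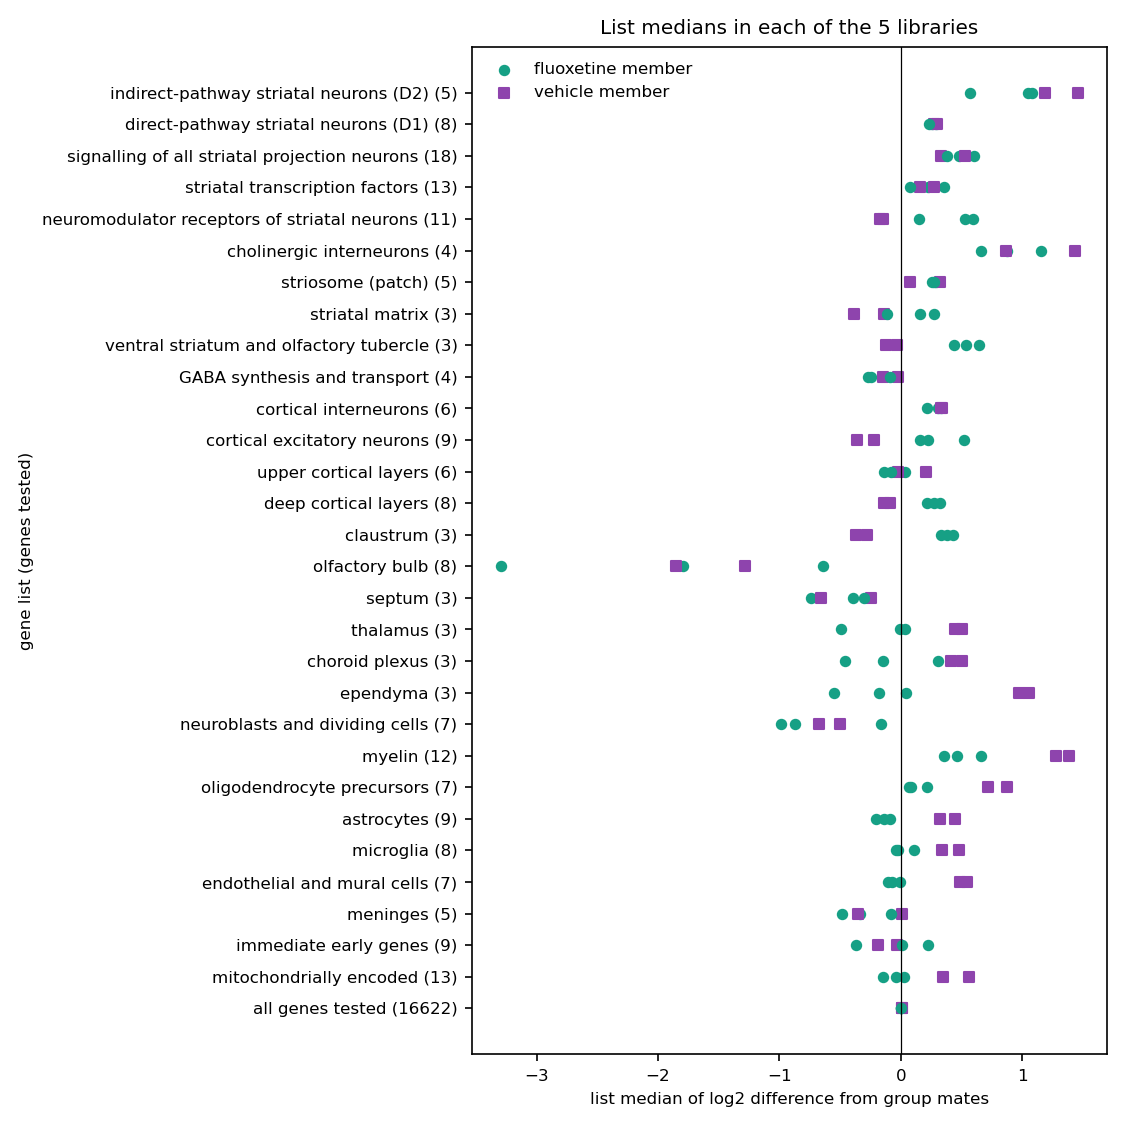
Median log2 difference from group mates over the genes of each list (rows, with genes tested in brackets) for the 2 vehicle members (purple squares) and the 3 fluoxetine members (green circles). Indirect-pathway and myelin medians are above 0 in all 5 libraries, olfactory bulb medians are below 0 in all 5, and cortical excitatory medians are below 0 in the vehicle members and above 0 in the fluoxetine members.

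The 35 libraries that the choice did not use gave a test on separate samples. Each gene was regressed on an index, the mean log2 level of Drd2 and Adora2a centred within group, and the slope is in log2 units per log2 unit of index. The index mostly followed Drd2, whose own slope was 1.585 ± 0.16 (SE) against 0.42 ± 0.14 for Adora2a. Of 16504 genes, limma called 1 with a higher slope (0.00606%) and 1 with a lower slope (0.00606%) at an adjusted p under 0.05. They were Galnt14, a glycosyltransferase gene, at 0.63 ± 0.12 (SE, adjusted p = 0.027) and Ctsw, a lymphocyte protease gene, at -1.26 ± 0.23 (limma, adjusted p = 0.027). No striatal-list gene was called. At an unadjusted p under 0.05, 727 genes (4.4%) had a positive slope, and so had 19 of 67 striatal-list genes, or 28.4%, with 3 negative. The median slope was 0.12 over those 67 and 0.00 over all genes.

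Rarb came nearest, with a slope of 0.42 ± 0.09 (SE, limma, adjusted p = 0.057), followed by Penk at 0.39 ± 0.08 (adjusted p = 0.076) and Nts at 1.69 ± 0.37 (adjusted p = 0.089). Rgs9 was at 0.50, Drd1 at 0.60, Foxp2 at 0.58 and Ppp1r1b at 0.37 (limma, adjusted p = 0.16, 0.18, 0.20 and 0.24). Chat and Slc18a3, raised in the 5, had slopes of -0.84 ± 0.26 and -0.60 ± 0.26 (SE, limma, adjusted p = 0.30 and 0.50). Gpr6 and Pde10a, also raised in the 5, had slopes of 0.09 ± 0.21 and 0.02 ± 0.09 (SE, limma, adjusted p = 0.94 and 0.99). Of the genes above every mate in all 5 groups, 116 other than Drd2 and Adora2a were tested here, and 36 had a positive slope at an unadjusted p under 0.05 and 2 a negative one. Only those passing the filter in these libraries are counted. Of all 16504 genes, 727 (4.4%) had a positive slope at an unadjusted p under 0.05 and 728 a negative one.

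All 12 myelin genes had a positive slope, 5 of them at an unadjusted p under 0.05. Of all 16504 genes, 8454 had a positive slope, 727 (4.4%) of them at that p. The mean myelin level followed the index with Pearson's r = 0.370 (permutation p = 0.0477, adjusted 0.0954 over 2 relations) and Spearman's rho = 0.342 (permutation p = 0.0538) over 35 libraries. Without the 2 libraries farthest from the median index, r was 0.217 and rho 0.233, and how far the relation rests on them was not tested. For the bulb level r was 0.194 and rho 0.125 (permutation p = 0.331, also after adjustment, and 0.506), and r was 0.167 without those 2 libraries. All 7 bulb genes tested had a positive slope, with a median of 0.97 and 0 at an unadjusted p under 0.05. That sign is opposite to the bulb difference in the 5. Dcx, Dlx1 and Dlx2, lower in the 5, had slopes of 0.07 ± 0.33, 0.32 ± 0.40 and 0.40 ± 0.37 (SE). With myelin as a further term no gene was called by limma, and 1132 had an unadjusted p under 0.05 against 1455 without it. The highest indices were in WT vehicle female 4 (0.99) and WT vehicle male 3 (0.71), and without both no gene was called and 742 had an unadjusted p under 0.05. The count of striatal-list genes with a positive slope is not given without these 2 libraries, so how far it rests on them is not known here.

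**Figure D4:**
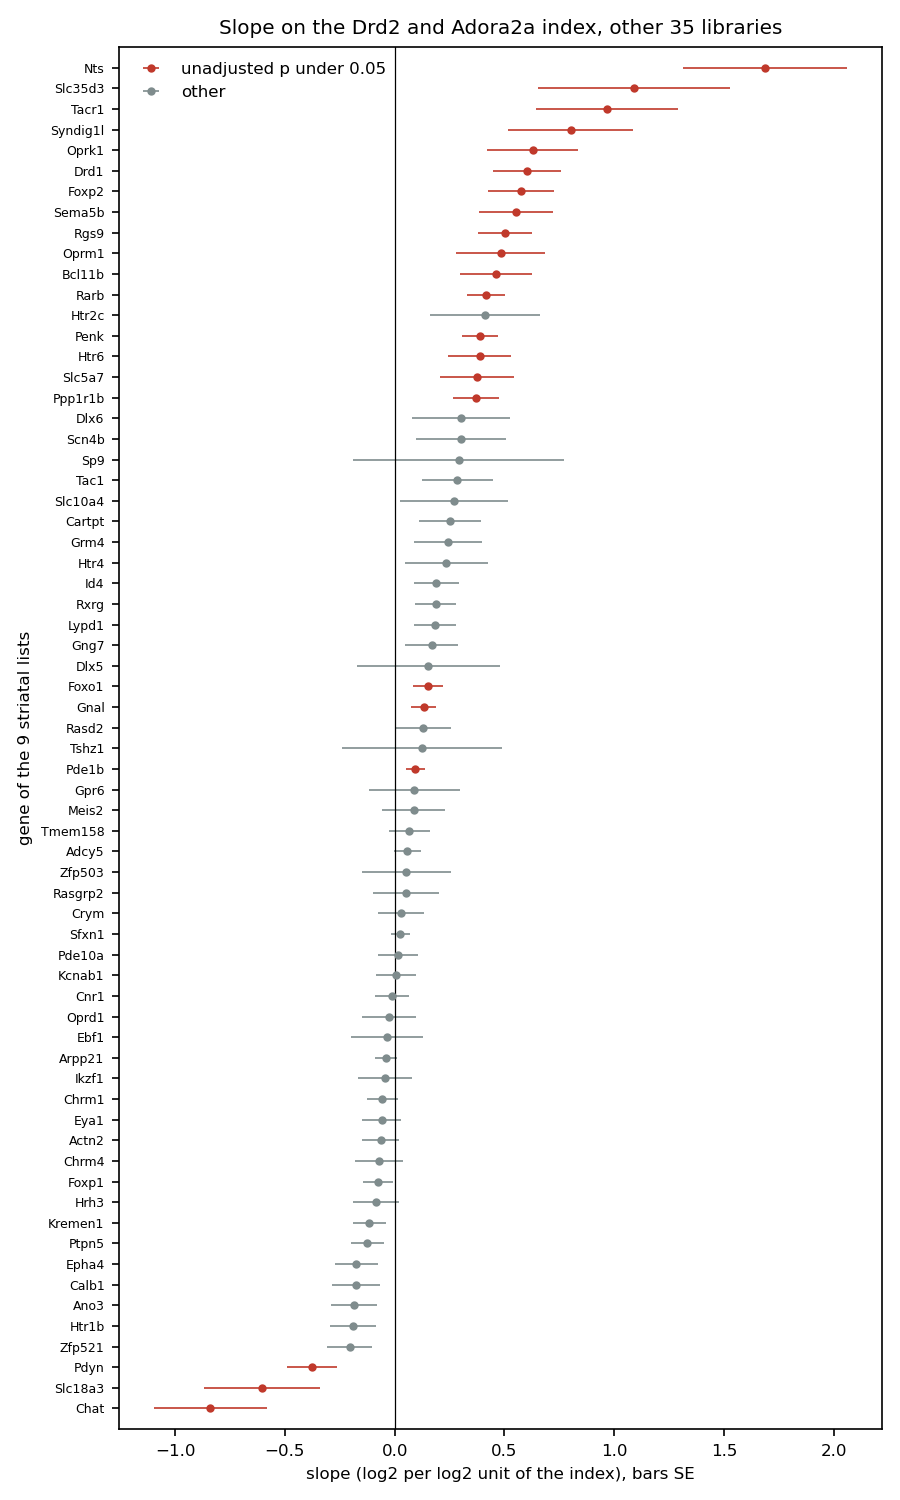
Slope on the within-group Drd2 and Adora2a index in the 35 separate libraries for the striatal-list genes shown (points; bars are SE), in red where the unadjusted p is under 0.05. Red points number 19 above 0 and 3 below 0, and no gene shown has an adjusted p under 0.05.

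The 5 libraries enter the study's own comparisons of genotype and of fluoxetine. These share control samples, so each is given by itself, with all 59 libraries and with the 5 left out. For genotype in vehicle pups limma called 0 genes either way. At an unadjusted p under 0.05 were 1618 genes (9.78%) with all libraries and 521 (3.15%) without the 5. Drd2 was 0.62 ± 0.40 (SE) higher in HT with them (limma, adjusted p = 0.594). Without them its log2 difference was -0.05 ± 0.24. Since the 5 were chosen for high Drd2 and Adora2a, the values of both genes without them are described and not tested. For genotype in fluoxetine pups 7 genes (0.0423%) were called with all libraries and 5 (0.0302%) without the 5, and 5 were shared. At an unadjusted p under 0.05 were 1017 genes (6.15%) with all libraries and 1412 (8.54%) without the 5.

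Fluoxetine in HT pups gave 4833 called genes (29.2%) with all libraries and 5553 (33.6%) without the 5, of which 3833 were shared. Higher genes made up 14.6% and 15.9% of those tested. At an unadjusted p under 0.05 were 6703 genes (40.5%) and 7336 (44.4%). Adora2a was 0.20 ± 0.26 (SE) higher with fluoxetine with the 5 (limma, adjusted p = 0.59). Without them it was 0.41 ± 0.15 higher, a value not tested because the 5 were chosen for high Adora2a. On the recovered reads of all libraries, Adora2a was at -0.07 by both edgeR and DESeq2. Htr2c was at -0.01 ± 0.28 and -0.61 ± 0.23 (limma, adjusted p = 0.99 and 0.042), and Syndig1l at 0.90 ± 0.37 and 1.41 ± 0.31 (adjusted p = 0.058 and 0.0010). Crym, a thyroid hormone binding protein gene, was at -0.25 ± 0.17 and -0.57 ± 0.15 (adjusted p = 0.25 and 0.0029). Going the other way, Nts was called with the 5 at 1.02 ± 0.34 and not without them at 0.87 ± 0.36 (limma, adjusted p = 0.020 and 0.056). Penk rose in either fit, by 0.54 and 0.62 (limma, adjusted p = 0.0019 and 0.00026).

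Fluoxetine in WT pups gave 2464 called genes (14.9%) with all libraries and 3097 (18.7%) without the 5, with 2372 shared. Only 1 of the 5 was a WT library, but the fit takes a single spread per gene from the libraries of all 12 groups. Higher genes made up 8.81% and 10.5% of those tested, and an unadjusted p under 0.05 was found for 5199 (31.4%) and 5649 (34.2%). Scn4b was at -0.60 ± 0.30 (SE) with the 5 and -0.78 ± 0.26 without them (limma, adjusted p = 0.16 and 0.033), and Penk rose by 0.42 and 0.40 (adjusted p = 0.030 and 0.014). All 8 bulb genes rose with fluoxetine in both genotypes in either fit, with list medians of 2.80 and 2.89 in HT and 3.26 and 3.32 in WT, and the part of this in the striatal-list calls was not tested. Leaving out a single library moved the WT count to 1086 (without WT fluoxetine female 4) and 1373 (without WT fluoxetine male 2).

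**Figure D5:**
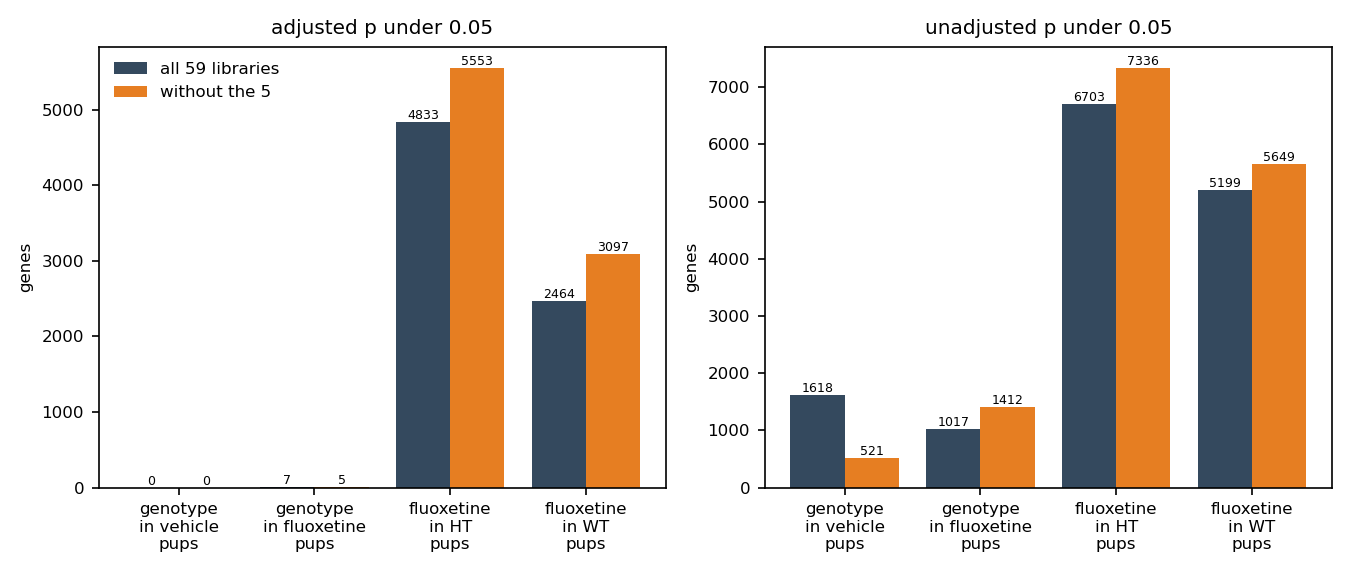
Genes past an adjusted p of 0.05 (left) and an unadjusted p of 0.05 (right) in 4 comparisons, with all 59 libraries (dark bars) and without the 5 high-marker libraries (orange bars); numbers stand above the bars. Called genes number 4833 and 5553 for fluoxetine in HT pups, and the unadjusted count for genotype in vehicle pups is 1618 and 521.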

How the data were processed

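Messenger RNA was sequenced in 59 prefrontal cortex libraries with a stranded poly(A) kit, per the labels' protocols. Salmon 0.11.2, DESeq2 1.19.11, R 3.6.0 and GRCm38 are named in the submitters' processing notes. The deposited table is a signal, counts per gene divided by a size factor by the authors. Whether counting used strand is not given in the sources used here. Within each library 100% of values were whole multiples of 1 read within a tolerance of 0.01, so whole reads were recovered, 25088446 to 35858365 per library. The table held 18088 genes, of which 18077 identifiers matched a symbol.

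Fits and differences used log2(value + 1) and the genes whose mean over the libraries of a fit reached 10. For the description, each high-marker library minus the mean of its mates (4 per group, 3 in WT fluoxetine females) was averaged over 5 groups. Slopes and group comparisons were fitted with limma 3.58.1 in R 4.3.3, with group means, a trended and robust prior and Benjamini-Hochberg adjustment over all tested genes at 0.05. Correlations used 100000 permutations within groups, two-sided. Scripts were tested on simulated data. The design allowed for raw counts, but the file holds normalized ones, so the recovered reads were tested with edgeR 4.0.16 and DESeq2 1.42.0 as alternatives only.

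The 5 libraries, the 30 gene lists and the rule for naming genes were chosen with earlier results of these data known. Named were Drd2, Adora2a, Myt1l, all measured striatal-list genes, up to 4 genes of each other list with the largest difference, the 20 highest and 12 lowest genes beyond all mates in 5 of 5 groups (predicted genes left out), up to 10 called genes per direction of slope, and striatal-list genes called with or without the 5. Not in the table were Gpr52, Lhx8, Drd3, Ccdc153 and Tmem212. Some genes that the rule names are not reported here, though they are included in the counts and medians of the lists.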

Additional observations from a re-analysis of the deposited data

Results flagged for a closer look

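Each of 13 quantities (Drd2, Adora2a and the summed normalized counts of 9 striatal lists, the myelin list and the olfactory bulb list) was examined in 12 groups for a library far from its group, by Dixon's gap test. It gave 35 marks in 156 group and quantity pairs, and a library can be marked for several quantities. Of these marks 20 fell on the 5 high-marker libraries, which were chosen for such values. Chance alone marks about 1 in 20 groups, a rate that does not apply to groups holding a chosen library.

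Among the 5, Drd2 stood apart at 171.5 in HT fluoxetine female 2, 303.8 in HT vehicle female 3, 234.4 in HT vehicle male 3 and 88.41 in WT fluoxetine female 2. Adora2a did so at 348.2, 525.7 and 395.7 in the first 3 of these. The summed indirect-pathway genes stood high at 2617 in HT vehicle female 3 and 2269 in HT vehicle male 3, and the signalling genes at 62107 and 58012 in the same libraries. Cholinergic genes summed to 148.9 in HT fluoxetine female 2, 184.3 in HT vehicle female 3, 154.3 in HT vehicle male 3 and 75.94 in WT fluoxetine female 2. HT vehicle female 3 stood low for transcription factors (9049) and neuromodulator receptors (13737) and high for myelin (347749). Ventral striatum genes were low in HT vehicle female 3 (953.6) and HT vehicle male 3 (1564).

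Outside the 5, Drd2 was low in WT lithium male 3 (20.84) and high in WT vehicle female 4 (79.03) and WT vehicle male 3 (55.51). WT lithium male 1 stood high for indirect-pathway genes (2301), transcription factors (13748), patch genes (5487) and olfactory bulb genes (7352). Indirect-pathway genes were low in HT lithium male 3 (924) and WT lithium female 5 (1357), signalling genes in WT vehicle male 5 (46545), patch genes in HT vehicle male 2 (3557) and myelin genes in HT lithium male 4 (97229). Ventral striatum genes were high in WT lithium male 3 (3454), and olfactory bulb genes in HT lithium female 4 (1493) and WT vehicle female 1 (3691).

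For 12 striatal genes, both vehicle members differed from their mates in one direction and all 3 fluoxetine members in the other. The difference between the sets was not tested, and 3959 of all genes (23.8%) split in this way. The mean log2 differences in vehicle and fluoxetine members were -2.09 and 0.75 for Htr2c, -1.37 and 0.40 for Oprm1, the mu opioid receptor, and -1.09 and 0.52 for Crym. They were -0.68 and 0.31 for Bcl11b, -0.60 and 0.34 for Cnr1, the cannabinoid receptor, and -0.37 and 0.25 for Chrm1, a muscarinic receptor. Gnal, the olfactory-type G protein, was at -0.19 and 0.50, Kcnab1 at -0.18 and 0.59 and Hrh3, a histamine receptor, at -0.16 and 0.25. Higher in the vehicle members were Ebf1 at 0.46 and -0.35, Foxo1 at 0.42 and -0.12 and Dlx6 at 0.20 and -0.45. Of the other lists, the medians were -0.29 and 0.31 for cortical excitatory neurons, -0.16 and 0.36 for deep cortical layers, -0.33 and 0.54 for claustrum, 0.41 and -0.14 for astrocytes and 0.46 and -0.07 for endothelial and mural cells.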

How the results depend on the processing

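Genes beyond every mate in all 5 groups numbered 121 above and 36 below. With a mean of at least 200 there were 20 below. In the vehicle groups alone, an alternative chosen after seeing the data, there were 3785 above and 3934 below, and in the fluoxetine groups alone 376 and 250, since fewer groups must concur. Leaving out 1 library gave 121 to 241 above, with 241 without HT fluoxetine female 2, 219 without HT fluoxetine male 2 and 184 without WT fluoxetine female 2. It gave 36 to 176 below: 176, 90 and 111 without those same libraries, 83 without WT fluoxetine female 1, 61 without HT vehicle male 3 and 56 when HT vehicle female 3 was left out.

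The slope called 2 genes by limma, 0 with a mean of at least 200, 6 without a trend, 1 with an index of Adora2a alone and 25 by DESeq2. With terms chosen after seeing the data it called 14 (olfactory bulb), 0 (myelin) and 0 (without the 2 highest indices). Leaving out 1 library gave 0 to 14: 14 without WT vehicle male 2 or male 5, 6 without HT lithium female 4 or WT fluoxetine male 3, 4 without HT lithium female 3, 1 without WT fluoxetine male 5, WT vehicle female 1 or WT vehicle male 3, and 0 without HT lithium male 3, WT vehicle female 4 or WT vehicle male 1. Galnt14 was called in neither the mean-200, Adora2a-alone and myelin fits nor that without the 2 highest indices, and it was also not called with the replicate block. Ctsw was not called after quantile normalization, with either marker alone, by DESeq2, with myelin or without the 2 highest indices. With Adora2a alone the slopes of Gnal and Pde1b turned to -0.073 and -0.021.

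Genotype in vehicle pups called 0 genes, 2 after quantile normalization, 1 with a mean of at least 200 and 4 by DESeq2. Leaving out 1 library gave 0 to 3: 3 without WT vehicle female 3, 2 without HT fluoxetine male 3 or male 5, HT lithium female 1, HT vehicle female 5 or WT fluoxetine male 4, and 1 without HT fluoxetine female 2, HT lithium female 5 or HT vehicle male 1. Genotype in fluoxetine pups called 7, 3 with a mean of at least 200 and 4 by edgeR, and 5 to 9 without 1 library. Fluoxetine called 3509 to 5484 genes in HT and 1086 to 3006 in WT pups without 1 library, the lowest without WT fluoxetine female 4, with 1373 without WT fluoxetine male 2. The Drd2 genotype difference in vehicle pups turned to -0.045 without the 5. Drd2 with fluoxetine in HT pups turned to -0.028 (quantile), -0.38 (edgeR) and -0.38 (DESeq2) and ran from -0.24 to 0.38 without 1 library. Adora2a there turned to -0.0665 (edgeR) and -0.066 (DESeq2), and Htr2c ran from -0.24 to 0.18 without 1 library. The causes were not tested.

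Deviations of libraries with the same replicate number had a median correlation of 0.02 over 319 pairs (-0.47 to 0.61, 75 over 0.1), and of 0.00 in the 35 separate libraries (-0.30 to 0.31), so the numbers were not taken as pairing. Among the 5 high-marker libraries, which share numbers within drug, all 4 same-number pairs were over 0.1 (0.27 to 0.61) and the other 6 had a median of 0.01. With the number as a replicate block, calls were 1 for the slope, 3 and 7 for genotype in vehicle and fluoxetine pups, and 4929 and 2377 for fluoxetine in HT and WT pups. Low counts limit Isl1, Chat, Slc18a3 and Six3, whose values outside the 5 rest on few reads.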

Other observations

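Deep cortical layer genes were split in the 5 libraries, as a description. Of 8 in the list, 1 was above every mate in all 5 groups and 1 below, against 0.728% and 0.217% of all genes tested. The former, Cplx3, a complexin of the deepest cortical layer, was at 531, 478, 423, 610 and 569 in HT fluoxetine female 2, HT fluoxetine male 2, WT fluoxetine female 2, HT vehicle female 3 and HT vehicle male 3, against 211 to 427 in the mates. Each was above its own mates, and the average log2 difference was 0.84 ± 0.13 (SD, n = 5). The latter, Etv1, a deep-layer transcription factor, averaged -0.31 ± 0.18, and Syt6, a synaptotagmin, was lower in all 5 at -0.33 ± 0.26. In the 35 separate libraries the Cplx3 slope on the Drd2 and Adora2a index was 0.62. All 8 deep-layer genes had a positive slope there, 4 of them at an unadjusted p under 0.05 and none called by limma. By contrast, 0 of 6 upper-layer genes had a positive slope. Of all 16504 genes, 8454 had a positive slope, 727 (4.4%) of them at an unadjusted p under 0.05. Among genes of dividing cells, Mki67 averaged 0.81 ± 0.41 and Top2a 0.86 ± 0.76 above the mates, opposite in sign to the neuroblast genes Dcx and Dlx1.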
